A study of Mus musculus with 6 samples.

Results

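The 9 genes described here encode the core of the rod phototransduction cascade: the rod transducin subunits (Gnat1, Gnb1 and Gngt1), the rod cGMP phosphodiesterase (Pde6a, Pde6b and Pde6g), the rod cyclic nucleotide-gated (CNG) channel (Cnga1 and Cngb1) and rod arrestin (Sag). They were taken by name from this pathway, and all 9 were found among the 19401 genes that the deposited files list in at least 1 of 6 libraries. The libraries came from 5XFAD mice 9 months old, which model Alzheimer's disease through mutant human amyloid precursor protein and presenilin 1 transgenes, hemizygous on a B6SJL background. Control mice (3 libraries, titled untreated in the labels) drank water containing Tween 80 by the study's methods, and EFV-treated mice (3 libraries) received efavirenz (EFV), an anti-HIV drug, in the same vehicle from 3 months of age on, at 0.08 mg/kg of body weight by the sample labels; the paper states a somewhat higher dose. Each library was made from retina plus retinal pigment epithelium (RPE) pooled from 5 to 6 mice, all male by the study's methods and free of the retinal degeneration alleles Pde6b rd1 and Crb1 rd8 by genotyping, so replicate error here is the difference between pools of mice, and both groups carry the transgenes.

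In rods, a visual pigment that has absorbed light activates transducin, whose alpha subunit then lifts the inhibition of the phosphodiesterase. The active enzyme breaks down cGMP, the CNG channel of the outer segment membrane closes, and the cell hyperpolarizes. Arrestin binds the phosphorylated pigment and ends its activity. Rods make up most cells of the mouse retina, and mutations in several of these genes cause inherited rod degeneration or stationary night blindness.

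The sequences around the start sites of some members are shown. Gnb1, which many cell types use, differed in CG dinucleotides from every rod gene with a sequence, but not from all of them in the letters searched. The reference table of RefSeq start regions (GRCm38.p6, the mm10 build of the files; 250 bases before and 50 bases after a start) held a window for 6 of the 9 members. The letters TAATCC, a core bound by the photoreceptor factor Crx, were searched on both strands and are printed in capitals, as TAATCC or, on the reverse strand, as GGATTA. They occurred in the windows of 4 of these 6 members, against 7.06% of all 32851 windows in the table. Arrestin (chr1:87803430-87803729, plus strand) had 1 match, starting 87 bases upstream of the start site. The transducin gamma gene Gngt1 (chr6:3993758-3994057, plus strand) had 1, starting 44 bases upstream. The channel gene Cngb1 (chr8:95306536-95306835, minus strand) had 2, starting 58 and 25 bases upstream, and Cnga1 had 1, starting 228 bases upstream. Gnb1 (chr4:155491111-155491410, plus strand) had none, and its window held 31 CG dinucleotides against 3 to 4 in the other 5 members and a median of 7 in the table. The window of Pde6b had no match either. For Sag, Gngt1 and Gnb1 the start in the table lies inside the annotated gene and not at its outer end. A match is a run of letters and not a measured binding site.
Sag: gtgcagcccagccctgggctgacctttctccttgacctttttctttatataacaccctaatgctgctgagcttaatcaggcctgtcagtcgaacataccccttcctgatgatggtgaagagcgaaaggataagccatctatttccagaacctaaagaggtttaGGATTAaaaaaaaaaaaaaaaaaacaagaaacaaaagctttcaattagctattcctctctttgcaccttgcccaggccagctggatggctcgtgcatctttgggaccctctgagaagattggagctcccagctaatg
Gngt1: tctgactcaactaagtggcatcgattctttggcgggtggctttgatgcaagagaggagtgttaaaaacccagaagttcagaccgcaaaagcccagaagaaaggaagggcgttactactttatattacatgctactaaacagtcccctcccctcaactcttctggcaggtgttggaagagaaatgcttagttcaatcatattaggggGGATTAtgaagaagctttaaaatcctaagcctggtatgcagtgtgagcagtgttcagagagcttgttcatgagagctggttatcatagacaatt
Cngb1: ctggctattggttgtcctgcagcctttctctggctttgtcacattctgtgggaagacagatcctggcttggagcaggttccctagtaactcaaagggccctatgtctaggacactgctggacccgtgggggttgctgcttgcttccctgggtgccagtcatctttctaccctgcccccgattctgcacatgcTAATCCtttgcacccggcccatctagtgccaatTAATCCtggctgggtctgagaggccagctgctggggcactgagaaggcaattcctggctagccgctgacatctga
Gnb1: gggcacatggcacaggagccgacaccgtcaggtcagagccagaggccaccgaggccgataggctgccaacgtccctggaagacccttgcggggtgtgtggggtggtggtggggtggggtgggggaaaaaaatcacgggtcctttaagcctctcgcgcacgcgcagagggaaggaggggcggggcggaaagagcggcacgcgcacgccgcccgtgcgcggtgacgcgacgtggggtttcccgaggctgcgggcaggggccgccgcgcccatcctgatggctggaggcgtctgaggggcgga

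The rounded expected counts of a library summed to between 23455199 and 24590294, and the 9 members together took 3.54% to 3.74% of them, so that counting error, a coefficient of variation of 0.157% for Gnat1 to 0.733% for Gngt1, was small beside the spread that edgeR estimated between pools, 6.48% to 9.53%. Control replicate 3 stood apart: the summed FPKM (fragments per kilobase of transcript, scaled to library size) of 11 lens genes was 482.8 there and at most 17.2 in the other 5 libraries. Control replicate 2 had the lowest sum of 10 RPE markers, 24.1 FPKM, with 45.2 to 58.8 in the other 5. Rod identity was clear in every library, since the list of 17 further rod and outer segment genes, such as Prph2 and Rom1, summed to between 7045 and 7362 FPKM.

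The level of each member was compared per length, as FPKM, over the 6 libraries. Gnat1 was the most abundant member with a mean of 7723 FPKM, which ranked 2 among the 15537 genes tested. Sag followed with 3282 FPKM at rank 5, and then Pde6g with 2319.8 FPKM at rank 7 and Gnb1 with 1700.4 FPKM at rank 10. Gngt1 had 850.4 FPKM at rank 24, Pde6b 738 at rank 30 and Pde6a 613 at rank 36. The channel genes were lowest, with 351 FPKM for Cngb1 at rank 84 and 297 FPKM for Cnga1 at rank 108. This order held in all 6 libraries, and for each of the 8 pairs of neighbours in it the ranges over the 6 libraries did not overlap. The mean levels spanned 26.0-fold from the lowest to the highest member, in the order channel, catalytic phosphodiesterase subunits, transducin gamma, transducin beta, inhibitory phosphodiesterase subunit, arrestin and transducin alpha.

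**Figure D1:**
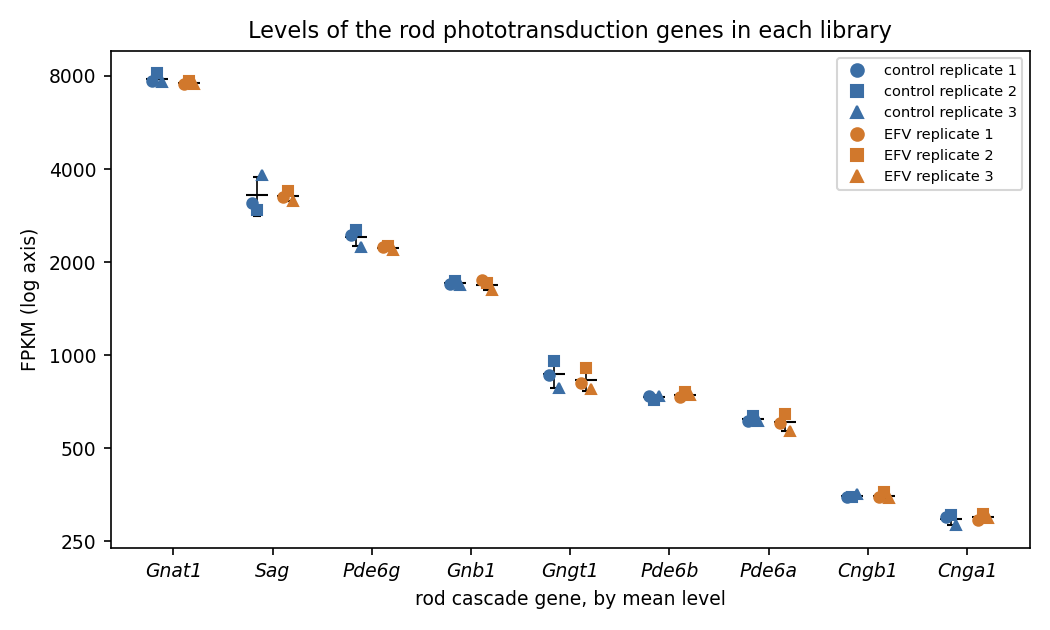
FPKM of the 9 rod cascade genes in each library on a log axis, with control libraries in blue and EFV libraries in orange; the black bars are the group mean ± SD (n = 3). Gnat1 lies between 7555 and 8157 FPKM and Cnga1 between 282 and 307 FPKM, and the control and EFV points of every gene overlap.

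Transducin is a trimer whose alpha subunit carries the signal to the phosphodiesterase. Gnat1 (Entrez 14685, chromosome 9 from 107674437 to 107679634), which encodes the alpha subunit, had 7709.8, 8157 and 7674 FPKM in control replicates 1, 2 and 3 and 7561, 7680.2 and 7555 FPKM in EFV replicates 1, 2 and 3. The groups overlapped, and control replicate 2 was the highest library. Control pools averaged 7847 ± 268.9 FPKM (SD, n = 3) and EFV pools 7599 ± 70.7 FPKM (SD, n = 3), and the log2 fold change was -0.06 (standard error 0.03, 95% interval -0.14 to 0.01, edgeR quasi-likelihood, unadjusted p = 0.0846, and 0.999 after Benjamini-Hochberg adjustment over every gene tested, as for each of the other 8 members).

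Gnb1 (Entrez 14688, chromosome 4 from 155491300 to 155559269) encodes the beta subunit, which other heterotrimeric G proteins also use, so its level is not a level of rods alone. It had 1697, 1736 and 1689.9 FPKM in control and 1747, 1708 and 1624 FPKM in EFV replicates 1, 2 and 3. Both the highest and the lowest library were EFV libraries, and the log2 fold change was -0.03 (standard error 0.04, 95% interval -0.11 to 0.06). Gngt1 (Entrez 14699, chromosome 6 from 3989082 to 3997436), which encodes the rod gamma subunit, had 863, 954 and 786 FPKM in control and 813, 907 and 779 FPKM in EFV libraries. Its libraries spread more widely than those of its partners, the coefficient of variation over the 6 being 8.28%, against 2.88% for Gnat1 and 2.57% for Gnb1. The log2 fold change of Gngt1 was -0.08 (standard error 0.08, 95% interval -0.27 to 0.11). Its expected count was not whole in 2 of the 6 libraries, as RSEM gives where reads fit more than 1 place. Gnb1 and Pde6a overlap pseudogenes on the other strand, and no strand setting is stated. Cnga1 overlaps one on its own strand, where a strand setting would not separate the reads. The expected counts of Gnb1, Pde6a and Cnga1 were whole in all 6 libraries, and the part of pseudogene reads in them was not tested.

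The phosphodiesterase holds a pair of catalytic subunits, PDE6A and PDE6B, and inhibitory PDE6G subunits that block them in the dark. Pde6a (Entrez 225600, chromosome 18 from 61220474 to 61289750) had 611, 636 and 614 FPKM in control and 605, 644 and 569.5 FPKM in EFV replicates 1, 2 and 3. The EFV libraries enclosed the control libraries, and the log2 fold change was -0.05 (standard error 0.05, 95% interval -0.17 to 0.07). Pde6b (Entrez 18587, chromosome 5 from 108388373 to 108431743) had 739.6, 717 and 736 FPKM in control and 730.4, 762 and 742 FPKM in EFV libraries. With a coefficient of variation of 1.99% it was among the steadiest members, and the log2 fold change was 0.01 (standard error 0.04, 95% interval -0.07 to 0.09), so that differences of more than 6.48% upward or 4.67% downward lie outside the interval.

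Pde6g (Entrez 18588, chromosome 11 from 120447607 to 120453500) encodes the inhibitory subunit. With the p of edgeR it was the only member within the limits that the study set, an unadjusted p of at most 0.05 and a change of at least 7%. The study took its own p from the Poisson distribution. Here, meeting the limits refers to the edgeR p unless another test is named. The study's own list, drawn from the same libraries and so no separate support, held Pde6g alone of the members, as lower in treated retina. With a Poisson model fitted here, 6 of the 9 members had an unadjusted p of 0.05 or less. Only Pde6g among them also changed by at least 7%, and 2305 of the 15537 genes tested met both limits under that model. In control replicates 1, 2 and 3 it had 2456, 2546 and 2246 FPKM, and in EFV replicates 1, 2 and 3 it had 2241, 2248 and 2182 FPKM. The groups met at control replicate 3, which lay just under EFV replicate 2, and the other control libraries were higher than every EFV library. In library-scaled counts (CPM), adjusted by the trimmed mean of M-values (TMM) they separated by a narrow margin, with 2109, 2227.5 and 1942 in control and 1915, 1938 and 1852 in EFV libraries. Control pools averaged 2416 ± 154.0 FPKM (SD, n = 3) and EFV pools 2224 ± 36.4 FPKM (SD, n = 3). The log2 fold change was -0.14 (standard error 0.05, 95% interval -0.25 to -0.02; unadjusted p = 0.0244 and adjusted p = 0.999, edgeR), or -9.12% with an interval from -16.1% to -1.54%. Of all genes tested 3.01% met the same limits in either direction and 1.54% met them as lower and 1.47% as higher in EFV-treated mice. Groups that did not overlap in scaled CPM were seen for 8.12% of all genes tested, 4.16% with EFV libraries lower, and for 1 of the 9 members. In FPKM they were seen for 7.67%, 2.68% with EFV libraries lower, and for 0 members.

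Whether Pde6g met these limits changed with the test, with leaving out single pools and with a correction for gene length. With DESeq2 it met them, at a log2 fold change of -0.14 (unadjusted p = 0.00555). With limma on log2 FPKM, after adding 0.1 or 1, the log2 fold change was -0.12 (unadjusted p = 0.198 and 0.202, or 0.336 with no filter on low counts). Left out in turn, control replicate 1, control replicate 2, EFV replicate 1 and EFV replicate 3 each took it past an unadjusted p of 0.05 (0.0651, 0.0877, 0.0517 and 0.0707, edgeR), with a log2 fold change of -0.09 without control replicate 2 and of -0.12 to -0.14 without the others. These fits also had 1 library fewer, so a rise in p is not by itself a dependence on that pool. The standard error was 0.05 in the main fit and without control replicate 2, and 0.06 without each of the others. Without control replicate 3, the library rich in lens RNA, it was -0.19 (unadjusted p = 0.00531, edgeR). Pde6g is listed with a length of 919 bases and Gngt1 with 963 bases, the shortest of the 9 members, and the 824 tested genes with an Entrez identifier and a length under 1000 bases had a median log2 fold change of -0.035, against 0.0025 for the 13553 longer ones. With a length trend taken out of every library the log2 fold change of Pde6g was -0.12 (unadjusted p = 0.0925, edgeR). The part of RPE content in this difference was not tested. The pool with the most Pde6g, control replicate 2, was the one with the lowest RPE marker sum. Control replicate 1, with the next most Pde6g, had an RPE marker sum of 50.2 FPKM. That was above the 46.8 of control replicate 3 and the 45.2 of EFV replicate 1, and below the 58.6 and 58.8 of EFV replicates 2 and 3.

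The CNG channel of rods is built from CNGA1 subunits, which form the pore, and a CNGB1 subunit, which modulates it; the Cngb1 locus also gives shorter glutamic acid-rich proteins, and its gene level counts these transcripts together. Cnga1 (Entrez 12788, chromosome 5 from 72603696 to 72642752) had 299, 304 and 282 FPKM in control and 292, 307 and 297 FPKM in EFV replicates 1, 2 and 3. Cngb1 (Entrez 333329, chromosome 8 from 95239043 to 95306585) had 348, 348 and 355 FPKM in control and 348, 362 and 345 FPKM in EFV libraries. The groups overlapped almost fully for both. The log2 fold change was 0.0016 for Cnga1 (standard error 0.05, 95% interval -0.11 to 0.11) and -0.0058 for Cngb1 (standard error 0.04, 95% interval -0.09 to 0.08). The average length that the files give for Cngb1, weighted over its 2 listed transcripts, moved from 2885 to 2978 bases between libraries, whereas the single-transcript members have a fixed length.

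Sag (Entrez 20215, chromosome 1 from 87798143 to 87845158), which encodes rod arrestin, had 3111, 2944 and 3825 FPKM in control and 3250.3, 3408 and 3153 FPKM in EFV replicates 1, 2 and 3. Control replicate 3 was the highest library and control replicate 2 the lowest, so the control group held both ends of the range. Control pools averaged 3293 ± 468.3 FPKM (SD, n = 3) and EFV pools 3271 ± 128.5 FPKM (SD, n = 3). The log2 fold change was -0.03 (standard error 0.08, 95% interval -0.22 to 0.16). The sign turned with single libraries: the log2 fold change was 0.09 without control replicate 3 (unadjusted p = 0.121, edgeR), 0.0047 without EFV replicate 3 and -0.10 without control replicate 2 (unadjusted p = 0.276, edgeR).

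**Figure D2:**
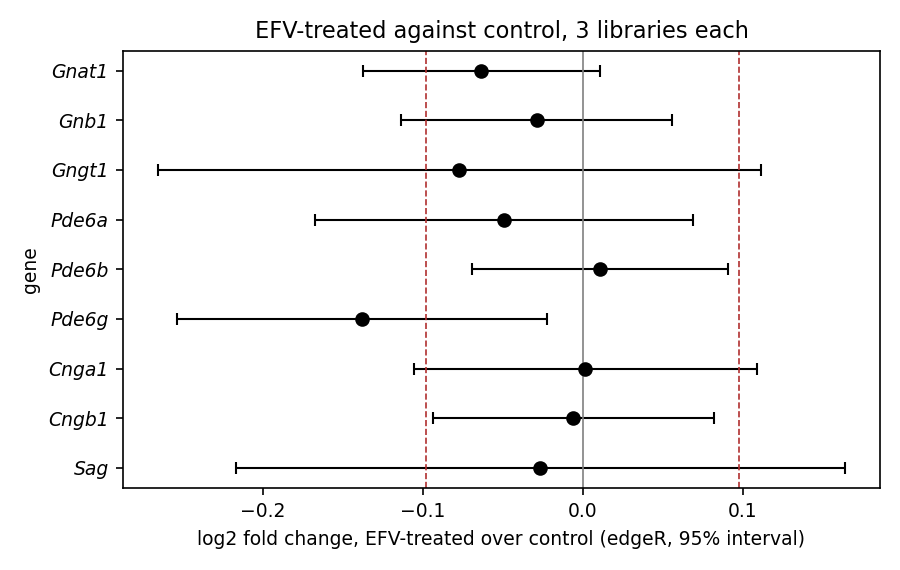
Log2 fold change of each rod cascade gene, EFV-treated over control (edgeR, points), with its 95% interval (bars); the dashed lines mark a fold of 7% in either direction. The interval of Pde6g, from -0.25 to -0.02, is the only one of the 9 that does not include 0.

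Across the 9 genes, 7 had a lower and 2 a higher estimate in EFV-treated mice, the median log2 fold change being -0.03 against 0.0013 for all genes tested. When the libraries were scaled by total counts alone the median of the members was -0.01, with 6 lower, and that of all genes was 0.02. After adjustment edgeR called 0 members and 0 of the 15537 genes (0%) at 0.05, while 473 genes had an unadjusted p of 0.05 or less. DESeq2 called 11 genes, none of them a member. Rods are one cell type within these pools, so fewer rods and less of a transcript per rod cannot be told apart.

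The members moved together in part between pools, and not as a block. Every member was below its mean over the 6 libraries in EFV replicate 3, from -0.81% for Pde6b to -9.65% for Gngt1. All but Gnb1 were below it in EFV replicate 1. All but Pde6b and Sag were above it in control replicate 2, and all but Gnat1 and Pde6g in EFV replicate 2. In scaled CPM, control replicate 2 was the highest library for 5 members, namely Gnat1, Gnb1, Gngt1, Pde6g and Cnga1, and EFV replicate 2 for 3, namely Pde6a, Pde6b and Cngb1. EFV replicate 3 was the lowest library for 5 members, namely Gnat1, Gnb1, Gngt1, Pde6a and Pde6g. Sag ran against most members in control replicates 2 and 3. It was 17.0% above its mean over the 6 libraries in control replicate 3. In control replicate 2 it was at -8.84% from that mean, where Gngt1 was 14% above its own mean. In the EFV libraries Sag lay on the side of most members, at -1.75%, 4.24% and -5.23% in replicates 1, 2 and 3. Among the 485 genes with an Entrez identifier and a mean of at least 100 FPKM, the median coefficient of variation of the FPKM was 4.47%. Sag, with 9.37%, varied more than 93.6% of these genes and Gngt1 more than 90.9%, whereas Cngb1, with 1.80%, and Pde6b varied more than 4.12% and 4.95% of them.

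**Figure D3:**
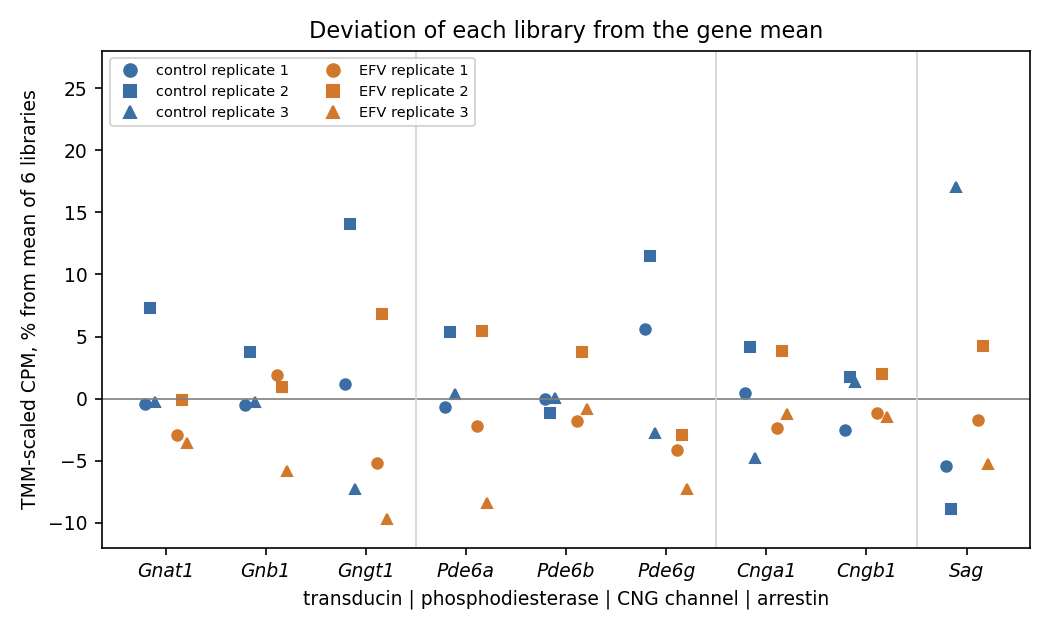
TMM-scaled CPM of each rod cascade gene in each library, as percent deviation from the mean of the gene over the 6 libraries; genes are ordered by complex and separated by vertical lines. Sag in control replicate 3 lies 17.0% above its mean, and the 3 EFV libraries of Pde6g lie below all 3 control libraries, by a narrow margin at control replicate 3.

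Subunit balance was examined as the ratio of FPKM values within a library, which does not depend on scaling between libraries. Per Gnat1, Gnb1 stood at 0.218 ± 0.00419 in control and 0.223 ± 0.00808 in EFV pools (SD, n = 3), and Gngt1 at 0.11 ± 0.0074 and 0.11 ± 0.0077, so both partners of the trimer were well below the alpha subunit at the RNA level. The catalytic phosphodiesterase genes were near parity, with 1.18 ± 0.0447 Pde6b per Pde6a in control and 1.23 ± 0.063 in EFV pools (SD, n = 3). The channel genes stood at 1.19 ± 0.0609 (SD, n = 3) and 1.18 ± 0.0154 (SD, n = 3) Cngb1 per Cnga1. The ratio of Pde6g to the sum of Pde6a and Pde6b was 1.82, 1.88 and 1.66 in control and 1.68, 1.60 and 1.66 in EFV replicates 1, 2 and 3. The groups overlapped at control replicate 3, and the means of 1.79 ± 0.112 and 1.65 ± 0.042 (SD, n = 3) had an exact two-sided permutation p of 0.20, where 3 libraries against 3 cannot give less than 0.10. Of 14 ratios tested in all, none had groups that did not overlap, and each had a p of 1.0 after Benjamini-Hochberg adjustment of the exact permutation test.

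Each rod gene was also set against its cone counterpart in the same library. Gnat1 exceeded Gnat2 82.6 to 94.7 times, the sum of Pde6a and Pde6b exceeded Pde6c 44.0 to 64.1 times, and Pde6g exceeded Pde6h 12.2 to 16.1 times. The channel genes exceeded their cone forms 69.3 to 84.3 times for Cnga1 over Cnga3 and 56.6 to 64.3 times for Cngb1 over Cngb3. Sag exceeded cone arrestin (Arr3) 24.2 to 35.9 times and Gngt1 exceeded Gngt2 11.8 to 15.6 times, and Gnb1 exceeded Gnb3, which cones share with ON bipolar cells, 7.75 to 8.86 times. The mean levels of the cone genes over the 6 libraries ran from 3.86 FPKM for Cnga3 and 5.62 for Cngb3 through 25.8 for Pde6c, 64.6 for Gngt2, 85.2 for Gnat2, 105.7 for Arr3 and 162 for Pde6h to 205.9 FPKM for Gnb3. Pde6g over Pde6h was 15.0 ± 1.74 in control and 13.8 ± 1.45 in EFV pools (SD, n = 3; exact two-sided permutation p = 0.50), and its log2 difference of -0.12 lay between -0.22 without control replicate 3 and -0.035 without EFV replicate 3.

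**Figure D4:**
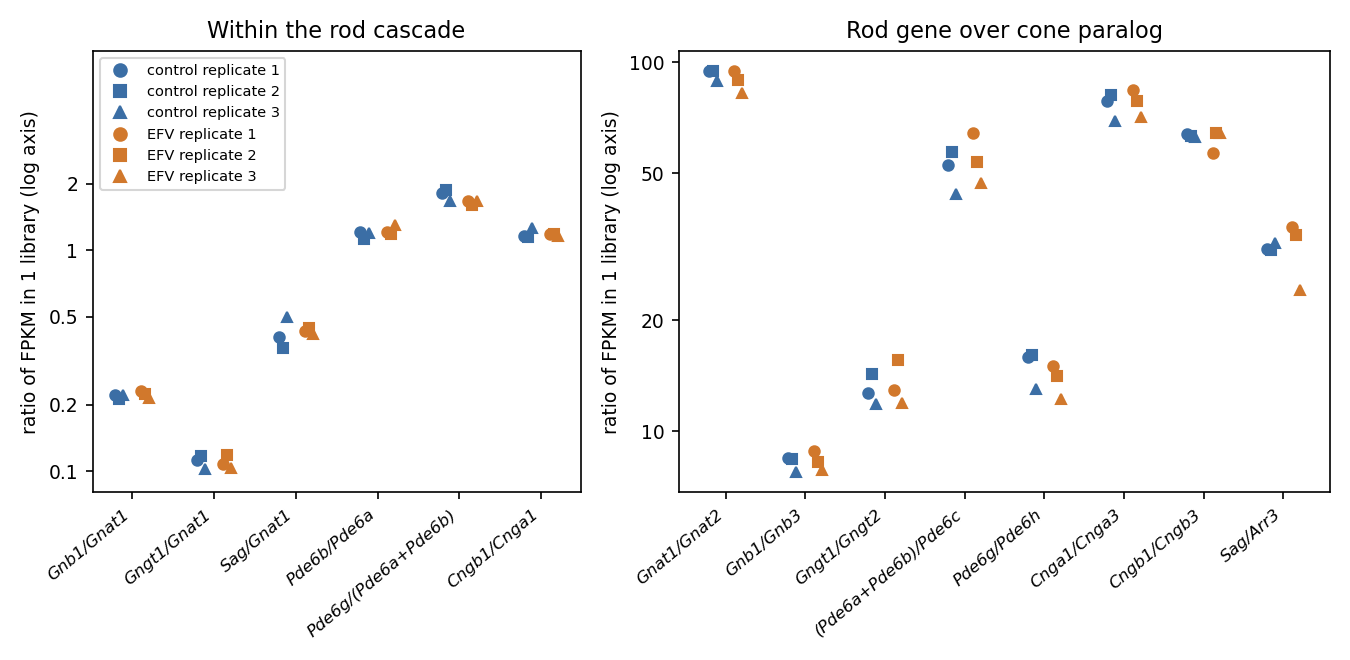
Ratios of FPKM within each library on log axes, for subunits within the rod cascade (left) and for rod genes over their cone paralogs (right); colours give the group and symbols the replicate. The Pde6g to catalytic subunit ratio lies between 1.60 and 1.88, and control and EFV points overlap for all 14 ratios.

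The genes around the members gave few calls. Of the 8 cone paralogs, 2 were higher and 6 lower with EFV, the log2 fold changes running from -0.13 for Gngt2, the cone transducin gamma gene (unadjusted p = 0.0536, edgeR), to 0.02 for Cngb3, and none met the limits of the study. Of 10 genes of recovery and calcium feedback 7 were higher and 3 lower, from -0.08 for Rcvrn (recoverin) to 0.14 for Guca1b, a guanylate cyclase activator, and none met the limits. Guca1a, the most abundant of them with a mean of 989 FPKM, had a log2 fold change of 0.07. Guca1b had an unadjusted p of 0.0772 in edgeR, whereas the study listed it as higher by its own test. Of 17 other rod and outer segment genes 9 were higher and 8 lower, and none met the limits; Prph2, the disc rim protein peripherin and the most abundant with a mean of 2186 FPKM, gave a log2 fold change of 0.04 (standard error 0.03).

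Among 7 genes whose products bind, carry or assist the members, 4 were higher and 3 lower, and none met the limits. Unc119, which carries the transducin alpha subunit and was the most abundant with a mean of 1464 FPKM, had a log2 fold change of 0.02, and Aipl1, the chaperone of the phosphodiesterase, one of 0.0005. Pdc (phosducin, which binds the transducin beta and gamma subunits) had 1365, 1696 and 1291 FPKM in control and 1031, 1328 and 1324 FPKM in EFV replicates 1, 2 and 3. EFV replicate 1 was the lowest and control replicate 2 the highest library, and the log2 fold change was -0.26 (standard error 0.12, unadjusted p = 0.062 in edgeR).

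Of 10 transcription factors of photoreceptors 4 were higher and 6 lower. Nrl, the rod determinant and the most abundant with a mean of 603 FPKM, gave a log2 fold change of 0.05 (standard error 0.04). Esrrb, a nuclear receptor that rods express, met the limits of the study, with 121, 148 and 120.0 FPKM in control and 106, 113 and 112 FPKM in EFV replicates 1, 2 and 3. The groups did not overlap, which 7.67% of all genes tested showed on the FPKM scale, and the log2 fold change was -0.25 (standard error 0.08; unadjusted p = 0.0139 and adjusted p = 0.999, edgeR). Of 11 further G protein beta and gamma genes 7 were higher and 4 lower, and 2 met the limits in opposite directions. Gng7 was at 14.7 ± 0.632 FPKM in control and 16.4 ± 0.478 FPKM in EFV pools (SD, n = 3), a log2 fold change of 0.14, and Gng13, a gamma gene of ON bipolar cells and the most abundant of the 11, was at 273 ± 17.1 and 247 ± 16.8 FPKM (SD, n = 3), a log2 fold change of -0.16; the adjusted p was 0.999 for both (edgeR).

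Markers of the other cell types in the pools were summed in the same way. Müller cell markers (7 of 7 tested) lay between 1663 and 1755 FPKM in control and between 1665 and 1683 FPKM in EFV libraries, bipolar markers (8 of 8) between 563 and 618 and between 560.0 and 600.2 FPKM, amacrine markers (8 of 8) between 336 and 358 and between 340.0 and 360.1 FPKM, and ganglion cell markers (8 of 8) between 334 and 371 and between 341 and 379 FPKM. None of these lists had a gene that met the limits of the study, nor did the horizontal cell, microglia, endothelial and blood lists. Clu, of the Müller list, had an unadjusted p of 0.0865 in edgeR, whereas the study listed it as lower by its own test. Of the RPE list 9 of 10 genes were tested, with 8 higher and 1 lower in EFV-treated mice. Rpe65 and Lrat met the limits as higher, as did 1.47% of all genes tested. Rpe65 had 4.65, 2.35 and 5.69 FPKM in control and 6.05, 6.59 and 6.69 FPKM in EFV replicates 1, 2 and 3. Lrat had 0.58, 0.43 and 1.00 FPKM in control and 1.15, 1.11 and 0.94 FPKM in EFV libraries, so its groups overlapped. Control replicate 2 was the lowest library for both. The RPE marker sum lay between 24.1 and 50.2 FPKM in control and between 45.2 and 58.8 FPKM in EFV libraries. In the lens list all 6 genes with enough counts met the limits as lower in EFV-treated mice, but the groups overlapped for each of them. The summed FPKM of all 11 lens genes was 482.8 in control replicate 3. In control replicates 1 and 2 it was 9.15 and 16.3, inside the range of 5.18 to 17.2 in EFV libraries, so the difference lay in control replicate 3. The 9 rod cascade genes summed to 17834 to 18343 FPKM in control and 17247 to 18025 FPKM in EFV libraries, and the part of RPE and lens RNA in their values was not tested.

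The genes closest to the members in pattern were found by the correlation of their log2 CPM with the mean of the standardised log2 CPM of the 9 members over the 6 libraries, among 6522 genes with an Entrez identifier and a mean of at least 10 FPKM. They were Cep120 (Pearson r = 0.994), Aplp2 (0.99), Agpat3 (0.985), Syp (0.982) and Pogk (0.982). With 6 libraries, which share their depth scaling, and this many candidates, these values describe the libraries and carry no test.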

How the data were processed

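Retina plus RPE of 5XFAD mice was sequenced as 3 control and 3 EFV libraries. The authors aligned filtered reads to mm10 with Bowtie2 2.2.5 and estimated expected counts per gene with RSEM 1.2.12 (HISAT2 2.0.4 is also named in the submitters' processing notes), and they deposited expected counts, not normalized, and FPKM, divided by effective length and library total. Read filter, annotation release and strandedness are not given in the sources used here. The library protocol selects polyadenylated RNA.

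Expected counts were rounded, and a gene was kept if 3 or more libraries held 10 counts. The test was edgeR's quasi-likelihood F (version 4.0.16, R 4.3.3) on TMM-scaled libraries, fitted by group without covariates and adjusted by Benjamini-Hochberg over all genes. A gene missing from a library was taken as 0. Ratios were tested by exact permutation over libraries; 3 against 3 cannot go below 0.10. Replicates are pools. The members, gene lists and rules were chosen with earlier results of these data known: all members are named, and of the other pathway lists the most abundant gene and up to 2 with an unadjusted p of 0.05 or less, while marker lists of other cell types are given as sums; Pdc, Guca1b, Rcvrn, Gngt2, Cngb3, Aipl1 and Rom1 were named after their values were seen. Alternatives were other scalings and filters, DESeq2 1.42.0, limma 3.58.1 on log2(FPKM + 0.1 or 1), Poisson errors, a block for replicate number and leaving out each library; the length trend was added after seeing the data. The methods were tested on simulated data. Promoter windows and coordinates are from RefSeq, GRCm38.p6.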

Additional observations from a re-analysis of the deposited data

How the results depend on the processing

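Of the 9 members, Pde6g alone met an unadjusted p of 0.05 and a change of 7%, and it did so under other scalings, filters, DESeq2, the Poisson model and the replicate block, while 0 members did with limma on log2(FPKM + 0.1), with or without the filter, on log2(FPKM + 1), and with the length trend removed. The log2 fold change of Pde6g was -0.12 in each of these. With 1 library left out, 0 to 2 members met the limits; the 2 were Pde6g and Pde6a (log2 fold change -0.10) without EFV replicate 2. Over all genes, at an adjusted p of 0.05 DESeq2 called 11, the Poisson model 2042 and edgeR 0 to 1 with 1 library left out, and 269 (DESeq2), 2305 (Poisson) and 387 to 577 (1 library left out) met the limits, against 468; total counts only gave 159 lower and 288 higher in place of 240 and 228. The median of the members stayed within the spread between libraries and lay from -0.066 to 0.0033 with 1 library left out.

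The estimate of Cngb1 changed sign, to 0.0097 with total counts only, 0.0051 with limma on log2(FPKM + 0.1), with and without the filter, and 0.0051 on log2(FPKM + 1). With 1 library left out the log2 fold changes ranged from -0.082 to -0.028 (without control replicate 2) for Gnat1, -0.10 to -0.00055 (without EFV replicate 3) for Pde6a, -0.050 to 0.0059 for Gnb1, -0.15 to 0.0036 for Gngt1, -0.015 to 0.027 for Pde6b, -0.032 to 0.031 for Cnga1, -0.025 to 0.0041 for Cngb1 and -0.096 to 0.093 for Sag. The number of ratios with groups that did not overlap went from 0 to between 0 and 2 in each family. Groups of 2 and 3 libraries separate more readily than 3 against 3, and no share over all genes was computed for them. These counts therefore show no dependence on a pool, and each such ratio had an exact permutation p of 0.10 or 0.20. The differences ranged from -0.066 to 0.031 for Gngt1/Gnat1, -0.060 to 0.17 for Sag/Gnat1, -0.041 to 0.028 for Cngb1/Cnga1 and -0.028 to 0.061 for Gnb1/Gnb3. They ranged from -0.055 to 0.14 for Gngt1/Gngt2, -0.018 to 0.21 for the catalytic genes over Pde6c, -0.045 to 0.091 for Cnga1/Cnga3, -0.068 to 0.024 for Cngb1/Cngb3 and -0.14 to 0.15 for Sag/Arr3. The causes were not tested.

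The replicate block gave 0 genes at an adjusted p of 0.05, 514 within the limits of the study and 1 member, Pde6g. With the block, 2 members had an unadjusted p of 0.05 or less (edgeR), Pde6g and Gnat1. Gnat1 had a log2 fold change of -0.063 (unadjusted p = 0.0145, edgeR), a change smaller than the 7% limit. Its interval, from -0.109 to -0.017, did not include 0, whereas it did in the fit without the block (-0.14 to 0.01). The replicate numbers were not taken as pairs. The deviations of same-numbered libraries correlated across genes with r = 0.12, 0.08 and 0.10. Every library correlated best with its own number. The deviations were taken from the group means, which ties these correlations to one another, so they cannot decide whether the numbers are pairs. Counting error was small beside the spread between pools for all 9 members.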
